A study of Homo sapiens with 6 samples.

Results

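Glycolytic enzymes and genes induced by low oxygen were examined in BE(2)-C_tetoff_KDM4C cells, a derivative of the human neuroblastoma line BE(2)-C that carries a tet-off construct for the histone demethylase KDM4C. Total RNA was measured on 6 Affymetrix whole-transcript arrays, 3 of cells grown without doxycycline, in which the construct is on, and 3 of cells grown with doxycycline, in which it is off, all at day 6. The cells of all 6 arrays carried the construct and were grown in medium with dialyzed serum, and the labels do not say whether the line is 1 clone or a pool. Induction of KDM4C and withdrawal of doxycycline cannot be told apart in this design, and in RNA of a whole culture a change in every cell cannot be told apart from a change in the share of cells that express a gene.

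The genes were listed by symbol, with earlier results of these data known: 50 genes of glycolysis, pyruvate entry into mitochondria, oxygen sensing and the hypoxia response. A gene was measured if a probe set was annotated to its symbol alone, and the probe set with the highest mean over the 6 arrays stood for it. This left 24 of the 50 genes, out of 14884 named genes on the array. They were 9 of 17 glycolytic enzymes, 2 of 6 genes of pyruvate dehydrogenase and its kinases, 4 of 8 genes of the hypoxia-inducible factor (HIF) and its oxygen sensors, and 9 of 15 hypoxia targets outside glycolysis. The 4 PFKFB regulators of glycolysis, the pyruvate dehydrogenase kinases, HIF1A, VHL, CA9 and 15 other genes had no such probe set and are not analysed here.

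Glycolysis splits glucose into pyruvate in the cytosol, and lactate dehydrogenase turns that pyruvate into lactate when it does not enter the mitochondria. When oxygen is short, prolyl hydroxylases of the EGLN family no longer mark the HIF alpha subunits for destruction. The alpha subunits then pair with ARNT and raise the transcription of most glycolytic enzymes, of the angiogenic factor VEGFA and of many other genes. In breast cancer cells KDM4C has been described as a coactivator of HIF, with LDHA among the genes affected, which is why this pathway is of interest when KDM4C is induced. Several of the targets, VEGFA among them, are also induced by the stress factor ATF4.

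Values are log2 expression values as deposited, and differences are no doxycycline minus doxycycline, so a positive one means higher without doxycycline. The test was limma's moderated fit over all 53617 probe sets, with p adjusted by the Benjamini-Hochberg method and a threshold of 0.05. KDM4C read 8.97, 9.08 and 9.02 without doxycycline, against 7.71, 7.77 and 7.80 with it. It was 2.40-fold higher (log2 difference 1.27, SE 0.07, limma adjusted p = 0.0079), the direction that a tet-off construct gives. Correlations between arrays over all probe sets were 0.991 to 0.993 within groups and 0.990 to 0.991 between them. Of the noradrenergic neuroblastoma markers, 6 of 8 were measured, and they read 9.05 to 11.4 without and 8.92 to 11.1 with doxycycline. None of the 6 passed (limma), but 5 were positive (83.3%, against 49.4% of named genes), with a median difference of 0.14. The groups of TH and DBH, enzymes of noradrenaline synthesis, did not overlap and were higher (33.3%, against 12.1% of named genes). TH averaged 9.56 ± 0.12 without and 9.22 ± 0.06 with doxycycline, a log2 difference of 0.34 (SD, n = 3 each; limma adjusted p = 0.190), and DBH was at 0.28 (limma adjusted p = 0.244). The part of these markers in the results below was not tested. The measured endothelial markers (2 of 4) read 2.80 to 3.38 without and 2.77 to 3.19 with doxycycline, and the immune markers (2 of 5, with CD68 the higher) 3.19 to 5.83 and 3.16 to 5.81. The measured epithelial markers (3 of 4, with KRT18 the highest) read 3.999 to 7.56 without and 4.16 to 7.47 with doxycycline. A second KRT18 probe set averaged only 3.47 over all arrays, with a log2 difference of -0.15, against 0.13 for the one used. Among the noradrenergic markers, a second probe set of ISL1 averaged 5.46, with a difference of 0.08, against 0.13 for the one used. The only fibroblast marker measured of 5, LUM, read 11.1 ± 0.04 without and 11.4 ± 0.04 with doxycycline (SD, n = 3 each). Its groups did not overlap, and its log2 difference was -0.30 (SE 0.06, limma adjusted p = 0.139).

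Most of the genes leaned upward without doxycycline, by small amounts, and none passed the test over all probe sets. VEGFA and NDRG1 had the largest differences, followed by the glycolytic enzymes TPI1 and GPI. LDHB leaned the other way. With limma, 0 of 24 were higher and 0 lower at an adjusted p below 0.05, where 0.248% of all probe sets were called higher and 0.0933% lower. Among named genes the shares were 0.43% and 0.134%. At an unadjusted p below 0.05, 9 of the 24 (37.5%) were higher, where 7.57% of named genes were, and 1 (4.17%) was lower, where 6.87% of named genes were. The count of 9 depended on single arrays: it was 5 without untreated (no doxycycline) replicate 1 and 4 without doxycycline-treated replicate 1. The groups did not overlap for 15 genes, with 12 higher (50%, against 12.1% of named genes) and 3 lower (12.5%, the same share as the 12.5% of named genes). In sign alone 19 of 24 (79.2%) were positive and 5 (20.8%) negative, against 49.4% and 50.6% of named genes. The median difference of the 24 was 0.11, against -0.002 for all named genes. Since VEGFA and NDRG1 were already known to differ when the genes were put together, these shares describe the list and do not test it.

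**Figure D1:**
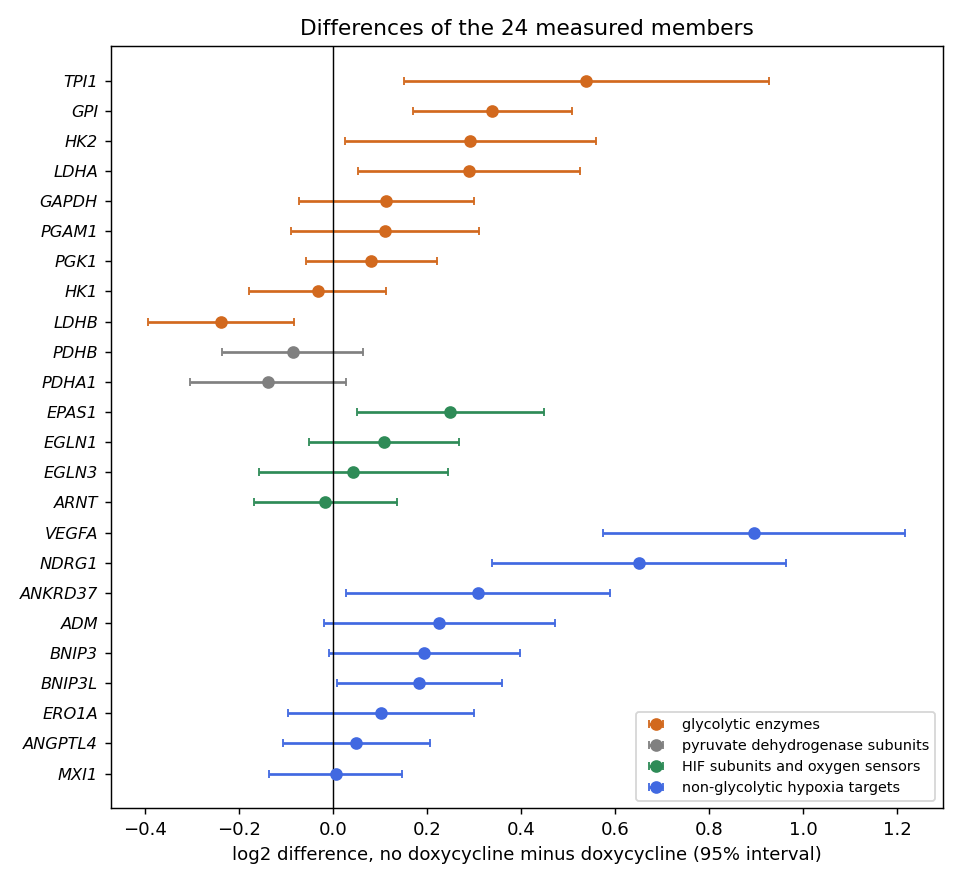
Log2 differences (no doxycycline minus doxycycline) of the 24 measured genes, grouped by role; points are limma estimates and bars their 95% confidence intervals. VEGFA at 0.89 and NDRG1 at 0.65 lie farthest to the right, and LDHB at -0.24 farthest to the left.

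The hypoxia targets outside glycolysis held the largest differences, and all 9 were positive as deposited, from 0.01 to 0.89 with a median of 0.19, although MXI1, nearest 0, turned negative with arrays centred on their medians. VEGFA, the growth factor that draws blood vessels toward poorly supplied tissue, read 8.19, 7.90 and 7.99 without doxycycline, against 7.00, 7.00 and 7.39 with it. Every array without doxycycline lay above every array with it, and the lone doxycycline value near 7.4 was that of replicate 3. VEGFA was 1.86-fold higher (log2 difference 0.89, SE 0.13, 95% confidence interval 0.57 to 1.22), just outside the threshold (limma adjusted p = 0.0634). It passed with limma's trend and robust moderation (adjusted p = 0.0366) and not in the other alternatives, where its adjusted p was 0.0503 to 0.206.

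NDRG1, a stress-induced protein widely used as a marker of hypoxic cells, read 5.72, 5.46 and 5.30 without doxycycline, against 5.00, 4.84 and 4.68 with it. The groups did not overlap, and in both of them replicate 1 was highest and replicate 3 lowest. The 1.57-fold difference (log2 0.65, SE 0.13, 95% confidence interval 0.34 to 0.96) did not pass (limma adjusted p = 0.128). NDRG1 read low: with doxycycline it averaged 4.84, nearer than VEGFA at 7.13 to 3.94, the median of the mean values of all probe sets. Whether NDRG1 stood above background was not tested.

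Of the other 7 targets, 4 had groups that did not overlap and were higher (57.1%, against 12.1% of named genes). ANKRD37, a small ankyrin-repeat protein induced by HIF, read 4.26, 4.11 and 4.56 without doxycycline, against 3.996, 3.9995 and 3.996 with it. The doxycycline arrays were nearly identical (SD 0.002), and the spread was all on the other side (SD 0.23), where replicate 3 was highest. The doxycycline values lay just above 3.94, the median of the mean values of all probe sets. Whether they stood above background was not tested. BNIP3L, which marks mitochondria for removal by autophagy, read 9.88, 9.85 and 9.82 without doxycycline, against 9.57, 9.66 and 9.76 with it. Its paralog BNIP3, with a similar role, read 10.72, 10.57 and 10.49, against 10.39, 10.33 and 10.48. The gap between the BNIP3 groups was the narrowest of these genes, since untreated replicate 3 and doxycycline-treated replicate 3 were almost level. ADM, the precursor of the vessel-dilating peptide adrenomedullin, read 5.18, 4.83 and 4.89 without doxycycline, against 4.79, 4.74 and 4.69 with it. The log2 differences of ANKRD37, ADM, BNIP3 and BNIP3L were 0.31, 0.23, 0.19 and 0.18, and their limma adjusted p values lay between 0.360 and 0.442. ANKRD37 was at 0.18 without untreated replicate 3, and ADM at 0.12 without untreated replicate 1.

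The remaining 3 targets had overlapping groups. ERO1A, an oxidase that supports disulfide formation in the endoplasmic reticulum, averaged 10.36 ± 0.10 without and 10.25 ± 0.09 with doxycycline (SD, n = 3 each). ANGPTL4, a secreted inhibitor of lipoprotein lipase, averaged 4.16 ± 0.06 without and 4.11 ± 0.04 with doxycycline. MXI1, a MAX partner that opposes MYC, averaged 6.28 ± 0.02 without and 6.27 ± 0.03 with doxycycline. The 95% confidence interval of the MXI1 difference ran from -0.14 to 0.15, which leaves out changes of the size seen for VEGFA and NDRG1. Its second probe set was at -0.05, of the opposite sign.

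**Figure D2:**
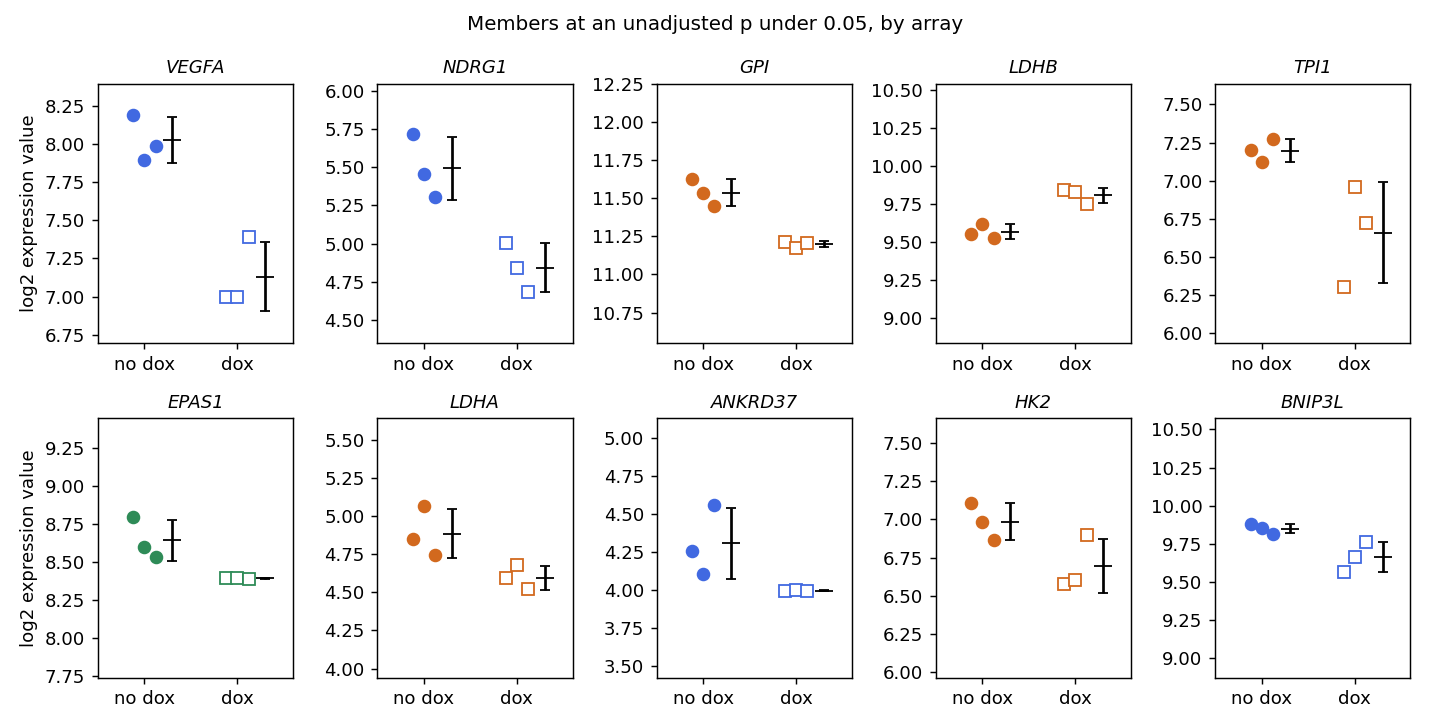
Log2 expression values on each array of the 10 genes with an unadjusted p below 0.05, filled circles without doxycycline and open squares with doxycycline; the bar beside each group is its mean ± SD (n = 3), and every panel spans the same range of log2 units. The groups of 9 genes are apart, and those of HK2 overlap through doxycycline-treated replicate 3.

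The glycolytic enzymes did not all lean the same way. Of 9 measured, 7 had positive and 2 negative differences, from -0.24 to 0.54, with a median of 0.11. The higher values came from HK2, GPI, TPI1 and LDHA, and the enzymes between TPI1 and LDHA that were measured lay near 0.1. HK1, at the same step as HK2, was at -0.03. With 9 of 17 enzymes measured, an order along the pathway was not tested.

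GPI, which converts glucose 6-phosphate to fructose 6-phosphate, read 11.63, 11.53 and 11.45 without doxycycline, against 11.21, 11.17 and 11.21 with it. The groups were well apart for the size of the change, which was 1.26-fold (log2 0.34, SE 0.07, limma adjusted p = 0.139). GPI passed with trend and robust moderation (limma adjusted p = 0.0459) and in no other alternative, where its adjusted p was 0.0939 to 0.304. TPI1, which interconverts the 2 triose phosphates, read 7.20, 7.12 and 7.27 without doxycycline, against 6.30, 6.96 and 6.72 with it. Its 1.45-fold difference (log2 0.54, SE 0.16, limma adjusted p = 0.263) was the largest of the enzymes and had the largest SE among them. Without doxycycline-treated replicate 1, the lowest TPI1 value, the difference was 0.36.

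HK2, the inducible hexokinase, read 7.11, 6.98 and 6.87 without doxycycline, against 6.58, 6.61 and 6.90 with it. Doxycycline-treated replicate 3 lay inside the untreated range, and the log2 difference was 0.29 (SE 0.11). HK1, the constitutive hexokinase, read 7.29, 7.22 and 7.22, against 7.26, 7.30 and 7.28. Its groups overlapped and its difference was -0.03 (95% confidence interval -0.18 to 0.11). The difference between the responses of HK2 and HK1 was not tested.

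The 2 lactate dehydrogenase subunits leaned in opposite directions. LDHA, whose subunit favours the conversion of pyruvate to lactate and which is a known HIF target, read 4.85, 5.06 and 4.74 without doxycycline, against 4.59, 4.68 and 4.52 with it. LDHB, whose subunit favours the reverse reaction, read 9.56, 9.62 and 9.53 without doxycycline, against 9.84, 9.83 and 9.75 with it. Neither gene's groups overlapped. LDHA was 1.22-fold higher (log2 0.29, SE 0.10, limma adjusted p = 0.310) and LDHB 1.18-fold lower (log2 -0.24, SE 0.07, limma adjusted p = 0.227), and neither passed. LDHA read low, much nearer than LDHB to 3.94, the median of the mean values of all probe sets. Whether its only named probe set reports LDHA mRNA above background was not tested. The stretch of the LDHA transcript that this probe set covers is not stated in the annotation used.

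The other 3 enzymes differed little. PGK1, the first enzyme of glycolysis to yield ATP, read 8.85, 8.81 and 8.83 without doxycycline, against 8.75, 8.77 and 8.73 with it. Its arrays were the most alike of all the enzymes (SD 0.02 in each group), and its groups did not overlap, yet the difference was 0.08 (95% confidence interval -0.06 to 0.22). GAPDH averaged 7.62 ± 0.05 without and 7.50 ± 0.11 with doxycycline, and PGAM1 averaged 7.69 ± 0.06 and 7.58 ± 0.12 (SD, n = 3 each). Their groups overlapped and their differences were both 0.11, and without doxycycline-treated replicate 3 they were 0.05 for each. The upper bounds of the 95% intervals of PGK1, GAPDH and PGAM1 were 0.22, 0.30 and 0.31, below the estimate for VEGFA. Several of these enzymes have processed pseudogenes of nearly the same sequence, and the array values do not separate such copies.

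Promoters of 4 of these genes are shown because they contrast the LDHA and LDHB subunits, which leaned apart, with GPI and ANKRD37, which leaned upward. Being picked by direction, these 4 promoters do not show how the number of motifs relates to it. Each is the 250 bases before the annotated start, from RefSeq on GRCh38.p14, 5′ to 3′ on the gene's strand. Capitals mark ACGTG or GCGTG on either strand, the core of the hypoxia response element; it overlaps the E-box CACGTG, to which MYC family proteins bind. They lie at chr11:18394313-18394562 (plus strand, LDHA, of whose 2 annotated starts the one with more matches is shown), chr12:21657843-21658092 (minus strand, LDHB), chr19:34364742-34364991 (plus strand, GPI) and chr4:185396591-185396840 (plus strand, ANKRD37).
LDHA: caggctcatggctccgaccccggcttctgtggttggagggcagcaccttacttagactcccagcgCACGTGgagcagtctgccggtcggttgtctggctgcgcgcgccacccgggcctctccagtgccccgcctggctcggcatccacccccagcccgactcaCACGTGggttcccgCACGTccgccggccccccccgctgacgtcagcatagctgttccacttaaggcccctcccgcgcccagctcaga
LDHB: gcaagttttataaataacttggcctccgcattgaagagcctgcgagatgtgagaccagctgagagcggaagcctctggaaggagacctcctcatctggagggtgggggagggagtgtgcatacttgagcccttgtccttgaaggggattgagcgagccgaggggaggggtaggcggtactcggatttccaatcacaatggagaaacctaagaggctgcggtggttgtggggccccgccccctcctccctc
GPI: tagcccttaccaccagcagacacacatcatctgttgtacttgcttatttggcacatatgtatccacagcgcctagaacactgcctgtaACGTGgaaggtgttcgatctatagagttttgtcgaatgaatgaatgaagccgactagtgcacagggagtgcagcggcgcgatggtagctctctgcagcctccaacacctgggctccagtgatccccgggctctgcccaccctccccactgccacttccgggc
ANKRD37: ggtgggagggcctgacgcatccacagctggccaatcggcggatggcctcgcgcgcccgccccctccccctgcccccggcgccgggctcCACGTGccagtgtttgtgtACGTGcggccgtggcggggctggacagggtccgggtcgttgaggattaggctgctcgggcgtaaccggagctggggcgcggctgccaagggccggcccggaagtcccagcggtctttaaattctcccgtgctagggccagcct
LDHA has 3 marked stretches, which begin 185, 87 and 73 bases before the start. ANKRD37 has 2, at 162 and 143 bases, GPI has 1 at 162 bases, and LDHB has 0 in this window.

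Over the wider window of 250 bases before to 50 after any annotated start, 18 of the 21 measured genes with an entry (85.7%) held the ACGTG or GCGTG core, against 63.6% of 10749 named genes with an entry. Since the list was put together from genes of glycolysis and the hypoxia response, this share describes the list and does not test it. The core was present in 8 of 9 glycolytic enzymes and in 6 of 6 hypoxia targets with an entry. The core was also found in the genes that leaned downward, LDHB, PDHA1 and PDHB, and in HK1, and it was absent from PGAM1, ARNT and EGLN3. At the start with most stretches, PDHB had 5, PDHA1 4 and LDHB 1, against 4 for LDHA, 2 for ANKRD37 and 1 for GPI. The core of the C/EBP-ATF element, TGATGNAA on either strand, was found in 1 of the 21 genes, HK1 (4.76%), against 3.22% of named genes. A match is a run of letters, not a bound site, and no binding was measured here. VEGFA, NDRG1 and BNIP3L were not in the promoter table used.

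At the branch into the mitochondria, both measured subunits of pyruvate dehydrogenase leaned downward. PDHA1, the catalytic alpha subunit, read 7.67, 7.73 and 7.56 without doxycycline, against 7.77, 7.81 and 7.79 with it. PDHB, the beta subunit, read 7.78, 7.87 and 7.86 without doxycycline, against 7.95, 7.92 and 7.90 with it. The groups of neither gene overlapped, but the differences were -0.14 and -0.09, with 95% confidence intervals of -0.30 to 0.03 and -0.24 to 0.06, and neither passed (limma adjusted p = 0.484 and 0.636). The E1 enzyme that they form feeds pyruvate carbon into the citric acid cycle, and its kinases, which HIF is known to induce, are not analysed here.

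Among the factors and sensors themselves, EPAS1 had the largest difference. EPAS1 encodes the alpha subunit of HIF2, which is linked to the noradrenergic lineage. It read 8.79, 8.59 and 8.53 without doxycycline, against 8.39, 8.39 and 8.39 with it. The groups did not overlap, and untreated replicate 1 was the highest. The log2 difference was 0.25 (SE 0.08, 95% confidence interval 0.05 to 0.45, limma adjusted p = 0.300), and it was 0.17 without untreated replicate 1.

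EGLN1, the main prolyl hydroxylase that marks HIF alpha subunits, read 8.63, 8.48 and 8.58 without doxycycline, against 8.46, 8.45 and 8.45 with it. The groups did not overlap, and the difference was 0.11 (95% confidence interval -0.05 to 0.27). EGLN3, a hydroxylase that is itself strongly induced by HIF in many cells, averaged 4.25 ± 0.14 without and 4.20 ± 0.02 with doxycycline (SD, n = 3 each), with overlapping groups and a difference of 0.04. ARNT, the shared partner of the alpha subunits, averaged 8.68 ± 0.05 without and 8.70 ± 0.04 with doxycycline, and its interval was -0.17 to 0.14. Array values are mRNA, whereas HIF activity is set mainly by the stability of the alpha proteins, which was not measured.

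Set side by side, the hypoxia targets outside glycolysis had a median difference of 0.19 and the glycolytic enzymes 0.11. Their ranges overlapped widely, at 0.01 to 0.89 and -0.24 to 0.54. Each list had 4 of 9 genes higher at an unadjusted p below 0.05 (44.4%, against 7.57% of named genes). At that level 1 glycolytic enzyme, LDHB, was lower (11.1%, against 6.87% of named genes) and 0 hypoxia targets were. The groups did not overlap, with higher values, for 6 hypoxia targets (66.7%) and 4 glycolytic enzymes (44.4%), against 12.1% of named genes. The means were 0.29 and 0.17. Whether the lists differ was not tested.

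Averaged over its genes and set against each gene's doxycycline mean, the target list stood at 0.39, 0.22 and 0.26 on the arrays without doxycycline, against 0.00, -0.03 and 0.03 on those with it. The glycolytic list stood at 0.20, 0.18 and 0.12, against -0.03, 0.05 and -0.01. For both lists every array without doxycycline was above every array with it. The 4 HIF pathway genes stood at 0.19, 0.06 and 0.04, against 0.01, -0.02 and 0.01, so most of their shift came from untreated replicate 1. The pyruvate dehydrogenase pair stood at -0.13, -0.06 and -0.14, against 0.01, 0.01 and -0.01.

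**Figure D3:**
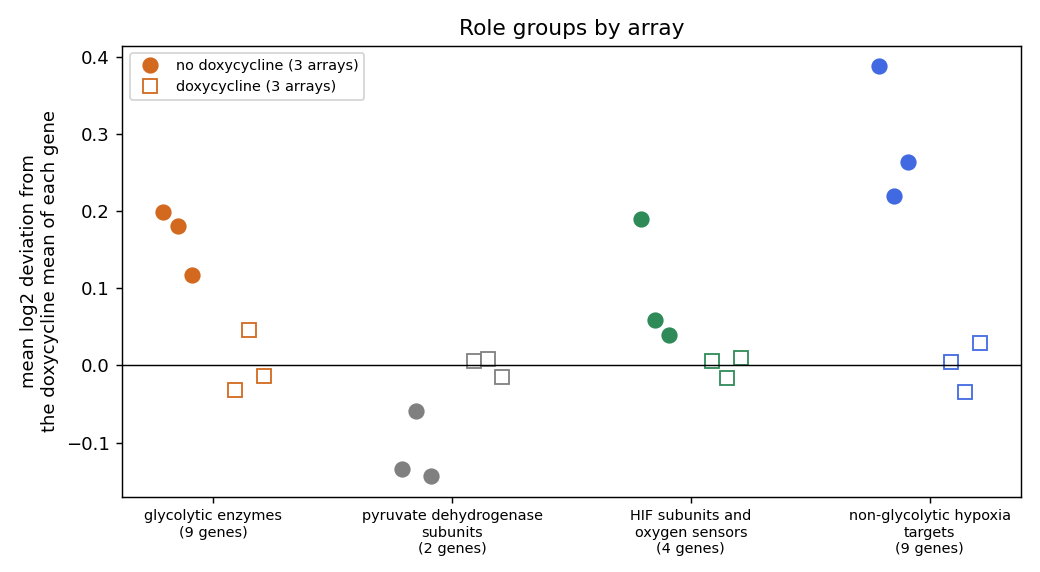
Mean log2 deviation of each role group from its genes' doxycycline means, with 1 point per array (filled circles without doxycycline, open squares with doxycycline; replicates 1 to 3 from left to right). Hypoxia targets lie between 0.22 and 0.39 without doxycycline and glycolytic enzymes between 0.12 and 0.20.

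Untreated replicate 1 ran high for this set of genes. It was the highest of the 3 untreated arrays for 16 of the 24 genes (66.7%), against 32.3% of named genes, while replicates 2 and 3 were highest for 6 and 2. Without it the VEGFA difference was 0.81, the NDRG1 difference 0.54 and the median of the hypoxia targets 0.13. What sets this array apart was not tested.

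Other genes of the pathway came from lists put together with earlier results of these data known. Of 32 other hypoxia-inducible genes, DDIT4 and STC2 rose and 0 fell, against 0.43% and 0.134% of named genes. In sign 26 were positive (81.2%, against 49.4% of named genes), and the median difference was 0.08. DDIT4, an inhibitor of mTORC1, averaged 9.10 ± 0.02 without and 7.80 ± 0.19 with doxycycline (SD, n = 3 each), a 2.47-fold difference (log2 1.30, SE 0.10, limma adjusted p = 0.0138). STC2, a secreted glycoprotein, averaged 8.29 ± 0.06 without and 7.13 ± 0.15 with doxycycline, a 2.23-fold difference (log2 1.16, SE 0.09, limma adjusted p = 0.0138). Toward lower values the leading genes were GYS1, muscle glycogen synthase, at -0.21 and EFNA1, an ephrin, at -0.14. The calls depended on the number of arrays: with any 1 array left out STC2 had an adjusted p of 0.0505 to 0.0960, and DDIT4 stayed below the threshold only without doxycycline-treated replicate 3 (limma adjusted p = 0.0311).

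DDIT4 and STC2 are also known as targets of ATF4, as is VEGFA. DDIT4 is also 1 of the 10 measured genes of the ATF4 list. Of the 9 others, 5 rose and 0 fell, against 0.43% and 0.134% of named genes. All 9 were positive, against 49.4% of named genes, and the median difference was 1.00. SESN2, an inhibitor of mTORC1, was at 1.63 and ASNS, asparagine synthetase, at 1.00. The rises of DDIT3, TRIB3 and ATF5 were 1.36, 1.31 and 1.26. These calls too depended on the number of arrays. With 1 array left out, ASNS (limma adjusted p = 0.0578 to 0.0906) and DDIT3 (0.0505 to 0.110) passed in none of the 6 cases. SESN2 passed only without untreated replicate 1 (0.0464), and TRIB3 and ATF5 only without doxycycline-treated replicate 3 (0.0422 for each). The part of the ATF4 response in the VEGFA and NDRG1 values was not tested.

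Of 8 other components of HIF signalling, 0 passed (limma). Before adjustment 3 were higher (37.5%) at a p below 0.05 and 0 lower, against 7.57% and 6.87% of named genes. SIAH1, a ubiquitin ligase that acts on prolyl hydroxylases, was at 0.26 and the HIF coactivator CREBBP at 0.17. ARNT2, the neuronal paralog of ARNT, was at -0.23 and SIAH2 at -0.08. Of 7 other genes of pyruvate oxidation, 0 passed, and before adjustment 1 was higher and 1 lower. MPC1, part of the mitochondrial pyruvate carrier, was at 0.22 and PDHA2 at 0.10. The PDHA2 means, 3.27 without and 3.17 with doxycycline, lay below 3.94, the median of the mean values of all probe sets. DLD, the E3 subunit shared by several dehydrogenases, was at -0.21 and the phosphatase PDP1 at -0.16.

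Of 13 other genes of glycolysis and gluconeogenesis, 0 passed (limma), and the median was -0.06. Before adjustment 1 was higher (7.69%) and 3 were lower (23.1%) at a p below 0.05, against 7.57% and 6.87% of named genes. PCK2, the mitochondrial form of phosphoenolpyruvate carboxykinase and a known ATF4 target, averaged 8.21 ± 0.20 without and 7.44 ± 0.13 with doxycycline (SD, n = 3 each). It was 1.70-fold higher (log2 0.76, SE 0.12, limma adjusted p = 0.0739). PGAM2, the muscle form of phosphoglycerate mutase, averaged 5.99 ± 0.48 without and 6.98 ± 0.31 with doxycycline. Its difference of -0.99 was large but its arrays were scattered (SE 0.26, limma adjusted p = 0.214). LDHC was at 0.18 and PGM2 at -0.20. The LDHC means, 3.39 without and 3.22 with doxycycline, lay below 3.94, the median of the mean values of all probe sets.

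**Figure D4:**
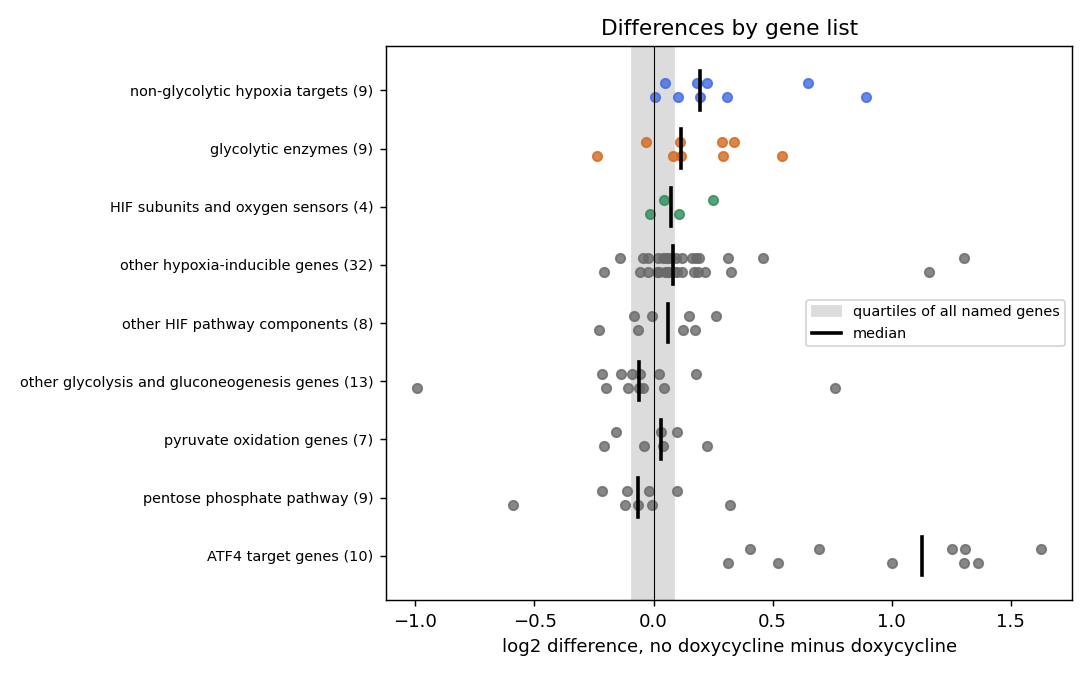
Log2 differences (no doxycycline minus doxycycline) by gene list, with 1 point per gene, a black line at each list's median, the number of genes in brackets and a grey band from the lower to the upper quartile of all named genes. The medians of the hypoxia targets (0.19) and the glycolytic enzymes (0.11) lie above the band, and that of the ATF4 targets, DDIT4 included, lies at 1.13.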

How the data were processed

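The authors used Partek, per the submitters' processing notes; no version, background method, normalization, summarization or build is stated there. The deposited values, 1 per array for each probe set, are log2 expression, judged from their range of 2.12 to 14.3, which is too high for another log base of a scanner signal. Array medians of 3.94 to 3.96 show a common scale. Of 53617 probe sets, 16098 had 1 gene symbol in GEO's platform annotation, 0 had several and 37519 had none; all 16098 Entrez identifiers matched RefSeq (GRCh38.p14), which changed 0 symbols.

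All probe sets were fitted with limma 3.58.1 (lmFit, eBayes) in R 4.3.3 on 3 against 3 arrays, with no covariate and no filter, and the procedure was tested on simulated data. Errors are SE of the fit or SD of 3 arrays. Nothing says that replicates came from separate cultures, so p-values measure only the spread between these samples, and their number limits the precision. A single value in an exact permutation test of 3 against 3 cannot go below 0.1. Genes were named by these rules: KDM4C, all measured genes of the set, and from each related list those past the threshold and the 2 genes of smallest p going up and going down. Members and lists were chosen with earlier results of these data known. The alternatives changed normalization, centring, moderation, the filter on dim probe sets, the replicate block, array weights, the choice of probe set, and left out each array in turn.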

Additional observations from a re-analysis of the deposited data

How the results depend on the processing

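Across 13 alternatives, 21 of the 24 genes kept the sign of their difference. The other 3 lay near 0: MXI1 turned to -0.0098 with arrays centred on their medians and to -0.021 with the mean of its probe sets; with single arrays left out MXI1 ranged from -0.0096 to 0.017 (negative without untreated replicate 2 or doxycycline-treated replicate 1), ARNT from -0.039 to 0.011 (positive without untreated replicate 2 or doxycycline-treated replicate 3) and EGLN3 from -0.015 to 0.12 (negative without untreated replicate 1). The number of genes higher at an adjusted p below 0.05 was 0 in every alternative but trend and robust moderation, which gave 2 (VEGFA and GPI), and 0 were lower in any. At an unadjusted p below 0.05, leaving out single arrays gave 4 to 8 higher genes and the other alternatives 7 to 10, with 1 lower throughout. With single arrays left out, the median was 0.074 to 0.17 for the glycolytic enzymes and 0.13 to 0.23 for the hypoxia targets. The filter on dim probe sets dropped no member. It removed probe sets with a mean at or below 3.94, the median over all probe sets. It does not show that a gene is above background: with doxycycline ANKRD37 averaged 3.997, ANGPTL4 4.11 and EGLN3 4.20. LDHA, ADM and NDRG1 averaged 4.60, 4.74 and 4.84 with doxycycline. KDM4C stayed at 1.24 to 1.29 with single arrays left out, with a limma adjusted p of 0.0311 to 0.0696. The same-numbered arrays did not deviate together (correlations of -0.01, -0.01 and 0.04), and not every array correlated best with its own number. With the replicate block, 0 of 53617 probe sets passed, against 183 without it, and KDM4C had a difference of 1.27 with an adjusted p of 0.118. Calls outside the set were added after seeing the data: RPIA, DDIT4 and STC2 missed the threshold with the block (adjusted p = 0.180, 0.119 and 0.119), as did ASNS, TRIB3, DDIT3, SESN2 and ATF5 (0.118 to 0.136), and PCK2 passed with trend and robust moderation (0.0423). Over all probe sets, leaving out single arrays gave 0 to 15 calls, trend and robust moderation 385, and dropping dim probe sets 311. The number of arrays limits the precision.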

Other observations

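The pentose phosphate pathway, which branches off glycolysis at glucose 6-phosphate, held the only called gene of the carbohydrate lists. RPIA, the isomerase that makes ribose 5-phosphate, read 5.24, 5.26 and 5.23 without doxycycline, against 5.79, 5.93 and 5.78 with it. The groups were far apart for their spread, and RPIA fell by 0.59 on the log2 scale without doxycycline (SE 0.07, limma adjusted p = 0.0356). Leaving out single arrays kept the difference between -0.62 and -0.54 but lost the call (limma adjusted p = 0.102 to 0.157). Of the 9 genes measured in this list, 0 rose and 1 fell, against 0.43% and 0.134% of named genes. In sign 2 were positive (22.2%, against 49.4% of named genes), and the median was -0.06. TALDO1, transaldolase, was at 0.32 and PGD, 6-phosphogluconate dehydrogenase, at 0.10, neither past the threshold. PRPS1, which turns ribose 5-phosphate into the nucleotide precursor PRPP, read 9.47, 9.48 and 9.48 without doxycycline, against 9.60, 9.71 and 9.77 with it. Its difference was -0.22 (limma adjusted p = 0.278).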
